A study of Mus musculus with 12 samples.

Results

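The genes of the NF-kappaB transcription factor and of its inhibitors were followed across sorted mouse B cells on microarrays. The members are Nfkb1, Nfkb2, Rel, Rela and Relb, which encode the 5 subunits, and Nfkbia, Nfkbib, Nfkbie, Nfkbiz and Tnfaip3, which encode inhibitors and regulators. Members were found by symbol: a probe set, the group of short probes that reads 1 transcript, was taken where its annotation gave 1 gene symbol and that symbol was a member. This gave 19 probe sets of 9 genes, out of 34945 probe sets with 1 symbol and 18193 genes. Nfkb1 was not analysed here.

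The study holds 12 Affymetrix arrays in 4 groups of 3, all from female C57BL/6 mice, with no further genotype or treatment given. Age-associated B cells (ABC) were sorted from the spleen of mice older than 15 months. B1 cells, which the sample titles call B1a, were sorted from the peritoneal cavity of mice older than 15 months (old B1) and of 8 weeks (young B1). Follicular B cells (FO) were sorted from the spleen of mice older than 15 months. Cells were sorted by flow cytometry and not cultured, and the surface markers of the sort are not named in the labels. The labels do not say whether replicates are separate mice or pools, so each p-value reflects the spread among these arrays alone, which may be technical. Organ and cell type differ together wherever B1 cells are set against ABC or FO, and cannot be told apart there.

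In a resting cell, NF-kappaB dimers are held in the cytoplasm by IkappaB proteins. In the canonical pathway, the B cell receptor, CD40 and Toll-like receptors activate the IKK kinase complex. IKK marks the IkappaB proteins for destruction, and dimers that contain p50, RelA or c-Rel move to the nucleus. In the non-canonical pathway, the BAFF receptor, CD40 and the lymphotoxin beta receptor lead to processing of p100, the product of Nfkb2, into p52, which acts with RelB. Several genes of the system are themselves NF-kappaB targets, Nfkbia and Tnfaip3 among them, so the pathway limits its own activity. In B cells, c-Rel is known for its part in proliferation and survival after stimulation.

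Promoter sequence shows where the members could be read by their own products. RefSeq windows on mouse build GRCm38.p6, from 250 bases before to 50 bases after a transcription start, were found for 7 of the members, 10 windows in all. The 4 shown here are those of Rel, Nfkb2, Tnfaip3 and Nfkbia. Rel, Nfkb2 and Tnfaip3 are the 3 members whose groups were free of overlap in each of 4 comparisons. These are ABC against FO, ABC against old B1, old B1 against FO and old against young B1. Nfkbia is the member whose group means spread least. Nfkb2 and Tnfaip3 have more than 1 window, and the one with the most matches is shown. The other Nfkb2 windows held 2 matches and 1 match, and the other Tnfaip3 window held none. Capitals mark matches to the kappaB consensus motif, searched on both strands, and overlapping matches share 1 run of capitals. The windows are chr11:23770920-23771219 (minus strand) for Rel, chr19:46304487-46304786 (plus strand) for Nfkb2, chr10:19015361-19015660 (minus strand) for Tnfaip3 and chr12:55492598-55492897 (minus strand) for Nfkbia. Each is written 5′ to 3′ on the strand of its gene.
Rel: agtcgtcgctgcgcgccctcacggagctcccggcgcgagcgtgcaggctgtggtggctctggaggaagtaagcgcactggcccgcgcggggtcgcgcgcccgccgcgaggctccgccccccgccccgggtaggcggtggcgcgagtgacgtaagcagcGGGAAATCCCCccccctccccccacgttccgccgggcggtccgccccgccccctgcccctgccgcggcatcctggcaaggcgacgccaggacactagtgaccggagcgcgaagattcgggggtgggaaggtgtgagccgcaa
Nfkb2: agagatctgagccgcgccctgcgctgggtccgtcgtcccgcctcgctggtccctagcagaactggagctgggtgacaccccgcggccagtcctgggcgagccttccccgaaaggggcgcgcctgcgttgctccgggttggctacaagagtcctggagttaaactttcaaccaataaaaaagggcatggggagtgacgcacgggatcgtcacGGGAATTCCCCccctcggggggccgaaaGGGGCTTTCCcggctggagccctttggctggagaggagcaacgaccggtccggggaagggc
Tnfaip3: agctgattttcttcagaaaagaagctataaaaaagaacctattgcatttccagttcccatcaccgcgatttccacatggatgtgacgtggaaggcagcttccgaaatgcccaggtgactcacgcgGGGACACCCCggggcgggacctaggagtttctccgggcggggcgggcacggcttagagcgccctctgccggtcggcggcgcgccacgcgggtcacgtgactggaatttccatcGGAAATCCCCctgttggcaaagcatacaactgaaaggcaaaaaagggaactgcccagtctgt
Nfkbia: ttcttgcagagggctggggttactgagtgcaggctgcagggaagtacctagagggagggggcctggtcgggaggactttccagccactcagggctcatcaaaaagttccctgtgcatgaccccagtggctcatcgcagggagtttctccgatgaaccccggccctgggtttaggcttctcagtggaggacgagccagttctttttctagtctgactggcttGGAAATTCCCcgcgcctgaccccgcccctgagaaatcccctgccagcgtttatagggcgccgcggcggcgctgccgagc

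In Rel the run of capitals holds 3 overlapping matches, whose first bases lie at positions -92 and -91 from the start. In Nfkb2 there are 3 matches at -39 and -38 and another at -11, in Tnfaip3 matches at -125 and -12, and in Nfkbia 1 at -29. The bases at -92 in Rel and at -39 in Nfkb2 match on both strands and are counted once for each strand. The number of matches is thus not a number of separate sites. Over all members with a window, 5 of 7 genes held a match in at least 1 window, namely Nfkb2, Rel, Nfkbia, Nfkbie and Tnfaip3. Of their 10 windows, 7 held a match. The windows of Rela and Nfkbib held none. In the whole RefSeq set, 4.51% of 32851 windows held the motif, as did 5.14% of 27025 genes. A match is a run of letters and not a measured binding site, and windows of 1 gene that overlap share their matches.

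Intensities were deposited on a linear scale, up to 22068, and are given here as log2 values, so a difference of 1 is a doubling. The array medians ran from 44.0 to 49.2 in intensity. In old B1 replicate 3 the 75th percentile of intensity was 346 and in old FO replicate 2 it was 378, against 400.1 to 412 in the other 10 arrays, and limma gave these arrays the lowest weights, 0.102 and 0.349. All 9 members lay above the array median on every array. Old B1 replicate 3 was the lowest of the 12 arrays for 7 of the 9 members. It was also the lowest for 36.6% of the 9217 genes above the array median on every array. Values without it are therefore given beside most old B1 results of the members below. Single pathway genes are given with it unless stated. No level of a gene is set against that of another gene, since probe sets differ in brightness.

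The labelled cell type was checked against marker genes, as sums of intensity over each list. The 9 measured B cell identity genes summed to 61244 to 62812 in old ABC, 59066 to 60121 in old B1, 58614 to 59958 in young B1 and 61671 to 65122 in old FO arrays, with at most 1 of them under the array median. The 15 macrophage and monocyte genes summed to 16577 to 18302 in old ABC, 12163 to 30089 in old B1, 15593 to 26623 in young B1 and 1176 to 3134 in old FO arrays, with 12 of 15 called higher in ABC and 15 of 15 in old B1 than in FO. The 11 neutrophil genes summed to 20786 to 35256 in old ABC, 234 to 449.8 in old B1, 329 to 1508 in young B1 and 474 to 10008 in old FO arrays. The 9 dendritic cell genes summed to 7314 to 8457 in old ABC, 4514 to 4699 in old B1, 3746 to 4223 in young B1 and 629 to 1188 in old FO arrays. Itgax and Sirpa, at a mean log2 intensity of 11.76 and 11.72, made up most of the ABC sum. The median difference of the dendritic cell list was -0.10 in ABC against old B1, with 3 of 9 genes called higher. The 9 mast cell genes summed to 438 to 1212 in old ABC, 2058 to 5031 in old B1, 2317 to 10245 in young B1 and 188 to 207 in old FO arrays, with 8 of 9 under the array median on every FO array. The 7 plasma cell genes summed to 16260 to 19135 in old ABC, 9464 to 13246 in old B1, 9833 to 10541 in young B1 and 9473 to 16760 in old FO arrays. The 7 NK cell genes summed to 1277 to 2616 in old ABC, 359 to 1150 in old B1, 699 to 843 in young B1 and 667 to 814 in old FO arrays. The 10 T cell genes summed to 10964 to 12198 in old ABC, 10595 to 12817 in old B1, 10931 to 11326 in young B1 and 7886 to 9807 in old FO arrays. Most of the sum in old ABC, old B1 and old FO came from Cd2, at a mean log2 intensity of 13.04, 13.28 and 12.69. The median difference of the T cell list was 1.16 in ABC against old B1, with 1 of 10 genes called. In old B1 replicate 3, 6 of the 10 were under the array median. The 6 erythroid and platelet genes summed to 444 to 1113 in old ABC, 360.5 to 2061 in old B1, 957 to 1975 in young B1 and 292 to 485 in old FO arrays. The scale has no 0, so no marker can be called absent. Several of these sums differed between the same groups as the members below, and their part in the results was not tested. In bulk samples, fewer cells of a type and less RNA per cell cannot be told apart.

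**Figure D1:**
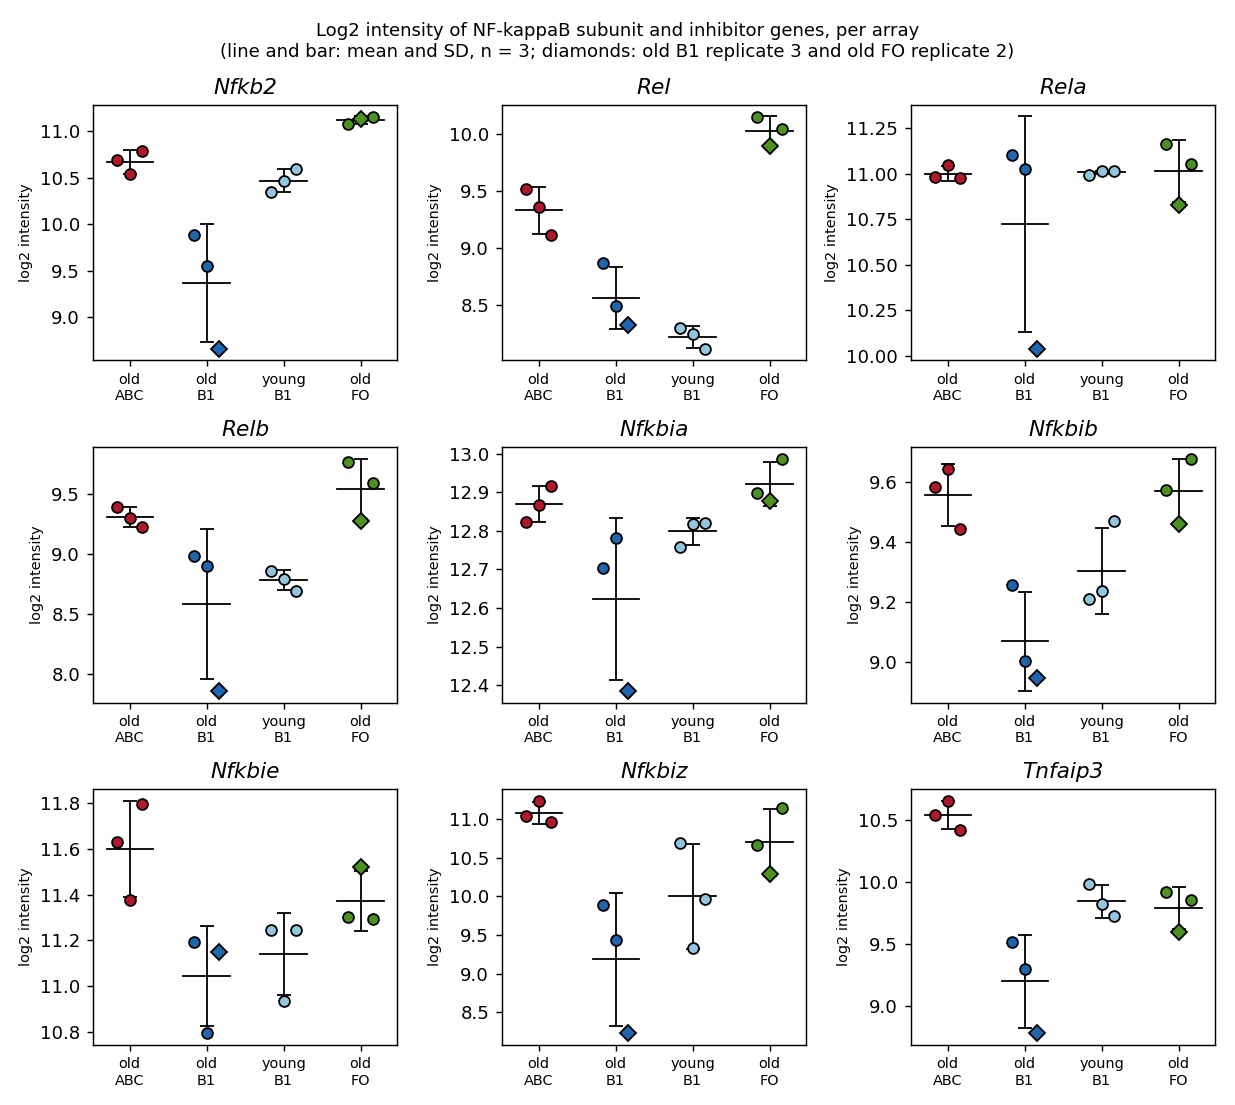
Log2 intensity of the 9 measured members on each of the 12 arrays, by group (n = 3 each; the line and bar are the mean and SD; diamonds mark old B1 replicate 3 and old FO replicate 2). Rel and Nfkb2 are highest in old FO cells and Tnfaip3 in old ABC, and old B1 replicate 3 is the lowest of the 12 arrays for 7 members.

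Among the subunits, Rel, the gene of c-Rel, had no overlap between any of the 4 groups. Its log2 intensity was 9.52, 9.36 and 9.11 in the 3 old ABC arrays, 8.87, 8.49 and 8.33 in old B1, 8.30, 8.24 and 8.12 in young B1 and 10.15, 9.90 and 10.05 in old FO. Old FO cells were highest, then ABC, then old B1, then young B1. Neighbouring groups were tested, and the difference between old and young B1 cells did not pass the test.

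Nfkb2, which encodes p100 and p52, was read by 2 probe sets. On the brighter one its log2 intensity was 10.69, 10.53 and 10.78 in old ABC, 9.89, 9.55 and 8.67 in old B1, 10.35, 10.46 and 10.59 in young B1 and 11.07, 11.13 and 11.15 in old FO arrays. Every old FO array was above all others and every old B1 array below all others, while ABC and young B1 arrays overlapped. The other probe set gave 8.66, 8.48 and 8.77 in old ABC, 7.90, 7.84 and 7.57 in old B1, 8.76, 8.81 and 8.72 in young B1 and 9.30, 8.76 and 9.17 in old FO. There too the old B1 arrays were all the lowest.

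Rela, which encodes RelA (p65), had log2 intensities of 10.98, 11.05 and 10.98 in old ABC, 11.11, 11.02 and 10.04 in old B1, 11.00, 11.01 and 11.01 in young B1 and 11.16, 10.83 and 11.05 in old FO arrays. All groups overlapped, and old B1 replicate 3 alone lay well below the other arrays. Relb, the partner of p52, had 9.39, 9.30 and 9.22 in old ABC, 8.98, 8.90 and 7.86 in old B1, 8.86, 8.79 and 8.69 in young B1 and 9.76, 9.27 and 9.59 in old FO arrays. The spleen groups overlapped each other, as did the B1 groups, and every spleen array was above every B1 array.

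Of the inhibitors, Nfkbia encodes IkappaB alpha, which takes dimers off DNA and back to the cytoplasm. Its log2 intensity was 12.82, 12.87 and 12.92 in old ABC, 12.70, 12.78 and 12.38 in old B1, 12.76, 12.82 and 12.82 in young B1 and 12.90, 12.88 and 12.99 in old FO arrays. Its group means spread least of the 9 members, with an SD of 0.13, against 0.83 for Nfkbiz, 0.81 for Rel and 0.74 for Nfkb2. Nfkbib, the gene of IkappaB beta, averaged 9.56 ± 0.10 in old ABC, 9.07 ± 0.16 in old B1, 9.30 ± 0.14 in young B1 and 9.57 ± 0.11 in old FO (SD, n = 3 each). Nfkbie, the gene of IkappaB epsilon, averaged 11.60 ± 0.21 in old ABC, 11.05 ± 0.22 in old B1, 11.14 ± 0.18 in young B1 and 11.37 ± 0.13 in old FO. For both, neighbouring groups in the order of means overlapped, except that for Nfkbie every FO array was above every B1 array.

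Nfkbiz encodes IkappaB zeta, a nuclear protein that works with p50 on a subset of target genes. It had log2 intensities of 11.04, 11.24 and 10.96 in old ABC, 9.89, 9.44 and 8.23 in old B1, 10.70, 9.34 and 9.97 in young B1 and 10.66, 10.29 and 11.15 in old FO arrays. It was the most variable member among old B1, young B1 and old FO arrays, with an SD of 0.86, 0.68 and 0.43. Among old ABC arrays its SD was 0.14, less than the 0.21 of Nfkbie. Tnfaip3 encodes A20, an enzyme that edits ubiquitin chains and shuts off signalling from TNF and Toll-like receptors. Its log2 intensity was 10.54, 10.65 and 10.42 in old ABC, 9.52, 9.29 and 8.78 in old B1, 9.99, 9.82 and 9.72 in young B1 and 9.92, 9.59 and 9.85 in old FO arrays. Every ABC array was above all other arrays and every old B1 array below all others, with young B1 and FO overlapping between them. The second Tnfaip3 probe set lay under the array median on all 12 arrays, between 3.43 and 4.48, and carries no usable level.

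Old ABC and old FO cells share organ and age and differ in cell type. ABC carried less Rel and more Tnfaip3 RNA than FO cells, and the other 7 members did not pass the test. Rel was lower by a log2 difference of -0.70 ± 0.15 (SE, adjusted p = 0.0154, 1.62-fold lower), and Tnfaip3 was higher by 0.75 ± 0.18 (adjusted p = 0.0219, 1.68-fold). Here and below, called means an adjusted p under 0.05 (limma, Benjamini-Hochberg over all 18193 genes). So 2 of 9 members were called, against 9.96% of all genes, with 1 higher (7.12% of all genes) and 1 lower (2.84%). Groups did not overlap for 3 members, Rel, Nfkb2 and Tnfaip3, against 28.8% of all genes. The split of all called genes, 1295 higher and 517 lower, became 1123 and 762 when each array was centred on its median.

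Members that were not called between ABC and FO had 95% intervals of unequal width. The widest was that of Nfkbiz, from -0.58 to 1.34, and the narrowest that of Nfkbia. Nfkb2 differed by -0.45 ± 0.25 (adjusted p = 0.364) although every ABC array was below every FO array on its brighter probe set. Each SE and interval rests on a spread shared by all 4 groups, not on ABC and FO alone. For Nfkb2 the SD was 0.12 in ABC, 0.04 in FO, 0.12 in young B1 and 0.63 in old B1. On its other probe set ABC replicate 3 (8.77) was above FO replicate 2 (8.76). Rela differed by -0.01, with a 95% interval from -0.53 to 0.50, and Nfkbia by -0.05, with an interval from -0.30 to 0.19. Nfkbib differed by -0.01 (adjusted p = 0.978), Nfkbie by 0.23 (0.491), Nfkbiz by 0.38 (0.734) and Relb by -0.24 (0.717). The median over the 9 members was -0.01, and over all genes -0.03.

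Leaving out 1 array could end either call while the difference stayed of similar size. Rel was not called without ABC replicate 3 (-0.59, adjusted p = 0.0639), FO replicate 1 (-0.64, 0.0657) or FO replicate 3 (-0.69, 0.055). Tnfaip3 was not called without ABC replicate 1 (0.75, 0.0667) or 2 (0.69, 0.0821) or FO replicate 2 (0.65, 0.0793) or 3 (0.78, 0.0573). Without both arrays that stand apart 4 members were called: Rel by -0.77 (adjusted p = 0.007), Tnfaip3 by 0.65 (0.00481), Nfkb2 by -0.44 (0.0494) and Relb by -0.37 (0.034). Nfkb2 was also called without old B1 replicate 3 alone (0.024), with array weights (0.0249) and in a fit of ABC and FO alone (0.0448).

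**Figure D2:**
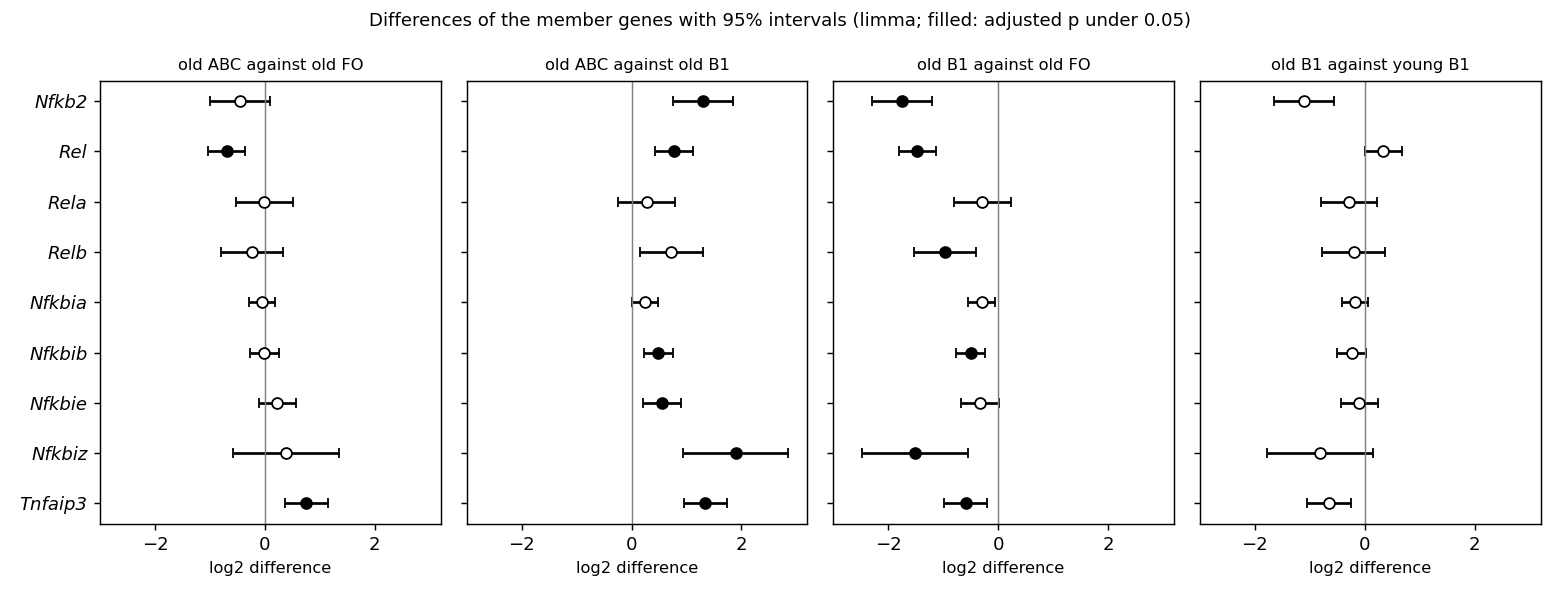
Log2 differences of the 9 measured members in 4 comparisons, first group minus second, with 95% intervals from limma (filled points have an adjusted p under 0.05). 6 members are filled and positive in old ABC against old B1, 6 are filled and negative in old B1 against old FO, and none is filled between old and young B1.

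Old ABC were next set against old B1 cells. ABC carried more RNA of 6 members, with Nfkb2 and Rel among the subunits and Nfkbib, Nfkbie, Nfkbiz and Tnfaip3 among the inhibitors. Tnfaip3 was higher by 1.34 ± 0.18 (adjusted p = 0.000658, 2.54-fold) and Nfkb2 by 1.30 ± 0.25 (adjusted p = 0.00583, 2.46-fold). Rel was higher by 0.77 ± 0.15 (adjusted p = 0.0079, 1.70-fold). Nfkbiz had the largest difference of the members, 1.89 ± 0.43 (adjusted p = 0.0152, 3.71-fold), and the largest error. Nfkbib was higher by 0.49 ± 0.12 (adjusted p = 0.0225) and Nfkbie by 0.55 ± 0.15 (adjusted p = 0.0383).

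These 6 of 9 members compare with 12.8% of all genes called, 7.40% higher and 5.43% lower. In every comparison the shares over all genes include dim genes, while all 9 members lay above the array median. Shares among genes of like brightness are not given. Groups did not overlap for 8 members, all but Rela, against 28.8% of all genes. The median of the 9 members was 0.73, against 0.02 over all genes. Relb, at 0.73 ± 0.26 (adjusted p = 0.0982), Nfkbia, at 0.25 ± 0.11 (0.19), and Rela, at 0.28 with an interval from -0.24 to 0.80, did not pass.

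Without old B1 replicate 3 the same 6 genes were called, with Tnfaip3 at 1.13, Nfkb2 at 0.95, Rel at 0.65 and Nfkbiz at 1.41, and Rela stood at -0.06, Relb at 0.37 and Nfkbia at 0.13, none of these 3 called. Relb was called with array weights (0.44, adjusted p = 0.0333) and without both outlying arrays (0.37, 0.0350). A fit of these groups alone called Tnfaip3 only, with Nfkb2 at an adjusted p of 0.0798, Rel at 0.0807, Nfkbib at 0.107, Nfkbie at 0.146 and Nfkbiz at 0.0603. Nfkbie was also lost under cyclic loess (0.0504), centring on the median (0.0567) or 75th percentile (0.11), and the mean of its probe sets (0.0872). Nfkbib was not called without ABC replicate 1 (adjusted p = 0.0727) or 2 (0.0868) or old B1 replicate 2 (0.0669), Nfkbiz not without ABC replicate 2 (0.0586), and Nfkbie not without 1 of 7 arrays (ABC replicates 1 and 3, old B1 replicate 2, young B1 replicates 1 and 3, FO replicates 1 and 3; adjusted p 0.0544 to 0.127).

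Probe sets of 1 gene gave the same direction of difference here, with unequal size. The second Nfkb2 probe set was higher by 0.87 ± 0.16 (adjusted p = 0.00596 over all probe sets). The other Nfkbiz probe sets gave 2.24 ± 0.53 (0.0263) and 0.68 ± 0.30 (0.237). The second probe set of Nfkbie gave 0.40 ± 0.19 (0.272), and that of Nfkbib gave 0.92 ± 0.30 (0.101) at a level near the array median. The 5 Nfkbia probe sets gave 0.16 to 0.55, none of them called.

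**Figure D3:**
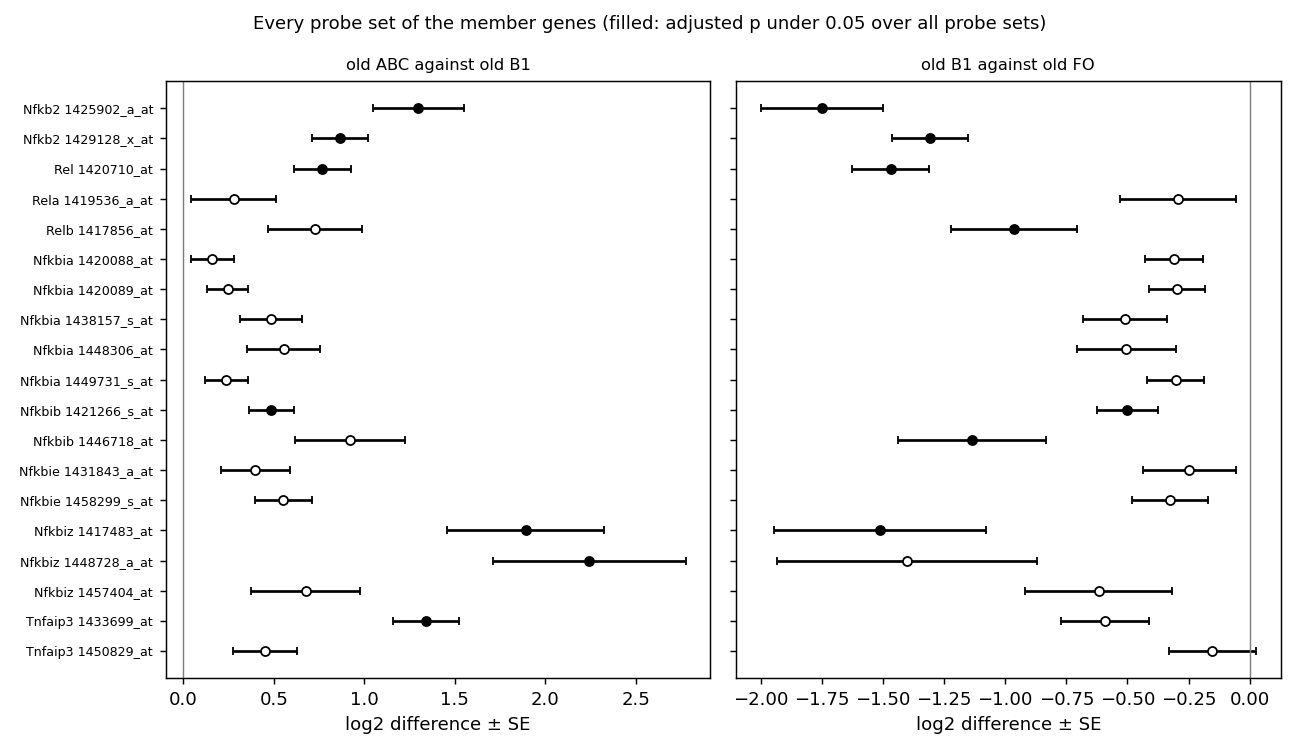
Log2 difference ± SE of all 19 probe sets of the members in old ABC against old B1 and in old B1 against old FO (filled: adjusted p under 0.05 over all probe sets). Both Nfkb2 probe sets are filled in both panels, and the 5 Nfkbia probe sets are open in both.

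Old B1 cells carried less RNA of 6 members than old FO cells of the same age. The largest difference was that of Nfkb2, lower by -1.75 ± 0.25 (adjusted p = 0.000721, 3.36-fold lower), followed by Nfkbiz, -1.51 ± 0.43 (adjusted p = 0.0368), and Rel, -1.47 ± 0.15 (adjusted p = 0.000103, 2.77-fold lower). Relb was lower by -0.96 ± 0.26 (adjusted p = 0.0268, 1.95-fold lower), Tnfaip3 by -0.59 ± 0.18 (adjusted p = 0.0458) and Nfkbib by -0.50 ± 0.12 (adjusted p = 0.0163). Nfkbia at -0.30 (0.0959), Nfkbie at -0.33 (0.195) and Rela at -0.29 (0.473) did not pass. The second Nfkb2 probe set gave -1.31 ± 0.16 (adjusted p = 0.000355 over all probe sets), and that of Nfkbib gave -1.14 ± 0.30 (0.0356). The other Nfkbiz probe sets gave -1.40 ± 0.53 (0.132) and -0.62 ± 0.30 (0.25). Over all probe sets the brighter one of Tnfaip3 was not called (0.0635). With the mean of a gene's probe sets, Nfkbiz (adjusted p = 0.0601) and Tnfaip3 (0.139) were not called.

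Of all genes 16.4% were called in this comparison, 8.40% higher and 8.02% lower. Groups did not overlap for 8 of 9 members, against 28.9% of all genes, and the median was -0.59 over the members and -0.04 over all genes. The split of all called genes, 1529 higher and 1459 lower, was 1959 and 1114 under cyclic loess normalization and 1404 and 1823 when each array was centred on its median.

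Nfkb2 and Rel were called under each of the 24 alternatives, while Nfkbib, Relb, Nfkbiz and Tnfaip3 each lost the call under some. Without old B1 replicate 3, Nfkb2 stood at -1.40, Rel at -1.35, Relb at -0.60 and Nfkbib at -0.44, all called. Rela at 0.05, Nfkbiz at -1.03 (adjusted p = 0.0714) and Tnfaip3 at -0.38 (0.0805) were not called. Relb was not called without FO replicate 1 (0.103) or 3 (0.0828), and Nfkbib not without old B1 replicate 2 (0.0509), FO replicate 1 (0.0517) or FO replicate 3 (0.0692). Nfkbiz lost its call without 1 of 8 arrays (ABC replicates 1, 2 and 3, old B1 replicates 2 and 3, young B1 replicate 3, FO replicates 1 and 3; adjusted p 0.0528 to 0.136), and Tnfaip3 without 1 of 10, all but old B1 replicate 1 and FO replicate 2 (0.0598 to 0.149). The comparisons of ABC and of FO with old B1 share the old B1 arrays, so the ABC-to-B1 and B1-to-FO values are not separate observations of old B1 cells.

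Old and young B1 cells share organ and cell type and differ in age. No member passed the test with limma, against 0.291% of all genes called, and 2 had an unadjusted p under 0.05. These were Nfkb2, with -1.10 ± 0.25 in old minus young cells (unadjusted p = 0.00111, adjusted p = 0.16), and Tnfaip3, with -0.65 ± 0.18 (unadjusted p = 0.00424, adjusted p = 0.277). Every old B1 array was below every young B1 array for both. Rel, with 0.34 ± 0.15 (adjusted p = 0.659), was the other member whose groups did not overlap, with every old array above every young one. Non-overlap in 3 of 9 members compares with 13.9% of all genes. The median difference was -0.24 over the members and -0.01 over all genes.

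For Nfkb2 the call between ages depended on 1 array and on the probe set. Without old B1 replicate 3 the difference was -0.75 and was called (adjusted p = 0.0275). The second Nfkb2 probe set, with -0.99 ± 0.16, was called as deposited (adjusted p = 0.048 over all probe sets). The intervals of Rela, from -0.80 to 0.23, Relb, from -0.77 to 0.37, and Nfkbiz, from -1.77 to 0.15, were wider than those of Nfkbia, from -0.42 to 0.07, Nfkbib, from -0.50 to 0.03, and Nfkbie, from -0.44 to 0.24. The differences themselves were -0.28 for Rela, -0.20 for Relb, -0.81 for Nfkbiz, -0.18 for Nfkbia, -0.24 for Nfkbib and -0.10 for Nfkbie. Without old B1 replicate 3 Rela and Relb changed sign, to 0.06 and 0.16, Nfkbiz stood at -0.33, Tnfaip3 at -0.44 and Rel at 0.46.

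Young B1 cells were also set against the spleen groups, where age, organ and cell type differ together. Rel was higher in old ABC than in young B1 cells by 1.11 ± 0.15 (adjusted p = 0.000949), and Tnfaip3 by 0.69 ± 0.18 (adjusted p = 0.029), with no other member called. Between young B1 and old FO cells Rel alone was called, at -1.81 ± 0.15 (adjusted p = 3.15e-05), while Nfkb2 stood at -0.65 (0.127) and Relb at -0.76 (0.0838).

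The rest of the pathway was read from 7 lists with 89 genes, of which 82 were measured and 6 stand in 2 lists. Between ABC and FO 16 were higher and 2 lower, with a median of 0.10. Between ABC and old B1 21 were higher and 3 lower, with a median of 0.35. Between old B1 and FO 11 were higher and 18 lower, with a median of -0.17, and between old and young B1 cells 0 were higher and 2 lower, with a median of -0.08. The shares called over all genes in these comparisons, 9.96%, 12.8%, 16.4% and 0.291%, and the medians over all genes, -0.03, 0.02, -0.04 and -0.01, are the background for these counts and for those of each list below. Without old B1 replicate 3 the counts were 22 higher and 3 lower in ABC against FO, 22 and 5 in ABC against old B1, 13 and 19 in old B1 against FO, and 0 and 2 in old against young B1. The count between ages was 0 without young B1 replicate 1 or 2, and 1 without ABC replicate 1 or 3, old B1 replicate 1, or FO replicate 1 or 3. Without young B1 replicate 3 it was 1 higher and 0 lower.

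Of the 9 measured IKK and upstream kinases none was called in the 4 comparisons over all 12 arrays. Without both outlying arrays Map3k14, the gene of the kinase NIK of the non-canonical pathway, was lower in ABC than in FO by -0.43 (adjusted p = 0.0432), higher in ABC than in old B1 by 0.56 (0.013) and lower in old B1 than in FO by -0.99 (0.00072). In the same fit Ikbke, the gene of IKK epsilon, was lower in ABC than in old B1 by -1.25 (0.015) and higher in old B1 than in FO by 1.85 (0.0026). Of the 8 other IkappaB proteins and nuclear modulators, Pdlim2, which directs nuclear RelA to degradation, was lower in old B1 than in FO cells by -0.39 (adjusted p = 0.0461) and was not called once both outlying arrays were left out (adjusted p = 0.0956). Among 10 ubiquitin regulators, Rnf11, a partner of A20, was higher in ABC than in FO by 0.40 and in old B1 than in FO by 0.49, and Tax1bp1, another partner of A20, was lower in old B1 than in FO by -0.60.

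Adaptors link receptors to the kinases. Of 8 measured TRAF and cIAP genes, 1 was higher and 1 lower in ABC than in FO, 4 were higher in ABC than in old B1, and 4 were lower in old B1 than in FO. Traf1, an adaptor that NF-kappaB itself induces, was higher in ABC by 1.37 ± 0.19 than in FO (adjusted p = 0.00102) and by 1.47 ± 0.19 than in old B1 (adjusted p = 0.000614). Traf5, an adaptor of CD40, was lower in ABC than in FO by -0.56 ± 0.09 (adjusted p = 0.00229), and lower in old B1 than in FO by -1.09 ± 0.09 (adjusted p = 1.87e-05). Traf2 was higher in ABC than in old B1 by 0.87 and lower in old B1 than in FO by -0.86.

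Of 13 receptors, 3 were higher in ABC than in FO, 2 higher in ABC than in old B1, and 2 higher and 1 lower in old B1 than in FO. Cd40, the receptor for T cell help, was higher in ABC than in old B1 by 1.20 ± 0.14 and lower in old B1 than in FO by -1.22 ± 0.14. Tnfrsf1b, the second TNF receptor, was higher than in FO in both ABC, by 1.11, and old B1, by 0.96. Of 8 ligands, 2 were higher in ABC than in FO, 5 higher in ABC than in old B1, 1 higher and 4 lower in old B1 than in FO, and 1 lower in old than in young B1. Tnfsf13b, which encodes the survival factor BAFF, averaged 9.57 ± 0.16 in ABC and 5.55 ± 0.13 in FO (SD, n = 3 each), a difference of 4.02 ± 0.18 (adjusted p = 1.6e-06), with the FO level near the array median. BAFF is made by myeloid cells, and the macrophage and neutrophil sums given above were also higher in ABC than in FO, a part in this difference that was not tested. Lta, the gene of lymphotoxin alpha, was lower in old B1 than in FO by -3.78 ± 0.21 and lower in old than in young B1 by -1.42 ± 0.21 (adjusted p = 0.0238).

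Of 32 measured target genes, 10 were higher and 1 lower in ABC than in FO, and 13 were higher and 3 lower in ABC than in old B1. In old B1 against FO 7 were higher and 10 lower, and between old and young B1 0 were higher and 2 lower. The list's median was 0.39 in ABC against FO, 0.57 in ABC against old B1, -0.40 in old B1 against FO and -0.01 in old against young B1, with medians over all genes between -0.04 and 0.02. Cd80, a costimulatory ligand, averaged 10.22 in ABC and 5.84 in FO (difference 4.38 ± 0.26) and was also higher in old B1 than in FO, by 3.99. Cxcl10, a chemokine, was higher in ABC than in FO by 4.08, and averaged 10.45 in ABC against 4.85 in old B1. Vcam1, an adhesion molecule of macrophages and stroma, averaged 10.08 in ABC against 2.75 in old B1. Both means in old B1 were under the array medians and may be background, so no size is given for these differences, which were called. Fas, a death receptor, was higher in ABC than in old B1 by 4.66 ± 0.25, and Il6, which averaged 6.52 in ABC against 2.60 in FO, was under the array median in FO.

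Targets also moved the other way. Myc, a driver of growth, was lower in ABC than in FO by -1.50, and Myc, Ccnd2 and Ebi3, chosen after their values were seen, were the 3 targets lower in ABC than in old B1. Ccr7, which guides B cells to T cell zones, was lower in old B1 than in FO by -2.07 ± 0.19 (adjusted p = 3.56e-05) and lower in old than in young B1 by -1.20 ± 0.19 (adjusted p = 0.0307). Without both arrays that stand apart the target counts were 14 higher and 2 lower in ABC against FO, 14 and 4 in ABC against old B1, 10 and 12 in old B1 against FO, and 0 and 2 in old against young B1. Myeloid cells also express many of these targets. The macrophage sums were higher in both ABC and old B1 than in FO arrays. The neutrophil sums were higher in ABC than in FO arrays. In old B1 they reached 449.8 against 474 or more in FO, and none of the 11 neutrophil genes was called between these groups. The part of these sums in the counts was not tested.

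**Figure D4:**
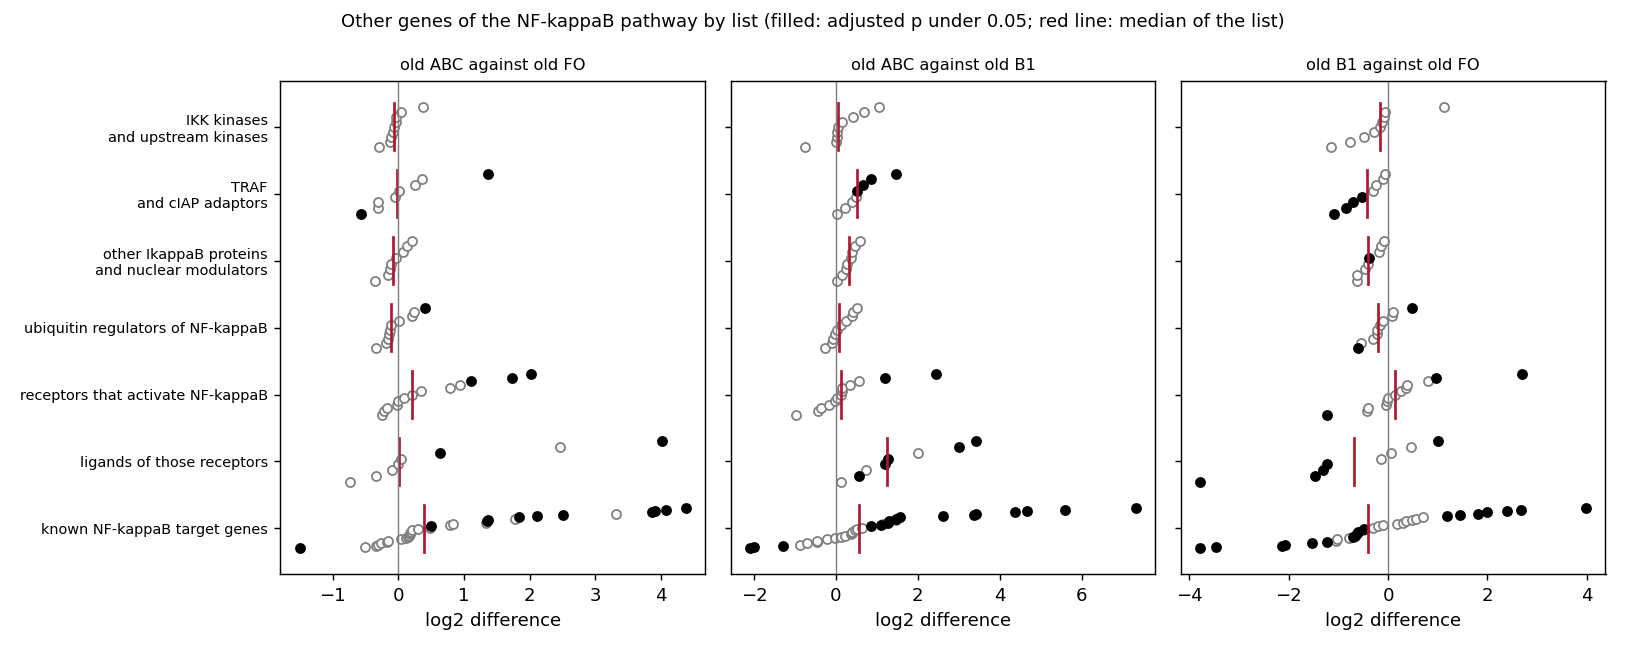
Log2 differences of the 82 measured pathway genes by list in 3 comparisons, first group minus second (filled: adjusted p under 0.05; red line: median of the list; genes in 2 lists are drawn in both). With all 12 arrays in the fit no kinase of the IKK list is filled, and the target genes run from -1.50 for Myc to 4.38 for Cd80 in old ABC against old FO.

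The patterns most like those of the 3 members with the widest group means were sought by root-mean-square distance of log2 values, each gene centred on its own mean, over the 12 arrays and 10692 genes. For Rel the nearest were Ublcp1 at 0.20, Zfp318 at 0.22 and Stap1 at 0.24. For Nfkb2 they were Cdr2 at 0.18, Rasal3 at 0.20 and Bcr at 0.20. For Nfkbiz they were Tnfrsf4 at 0.33, Ppp1r3f at 0.33 and Phka1 at 0.34, a looser likeness. These distances are descriptions over arrays that share their groups and old B1 replicate 3.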

How the data were processed

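The intensities were deposited by the authors on a linear scale. RMA and affy are named, per the submitters' processing notes, and the sources used here give no versions or settings. Log2 values were taken here. Of 45037 probe sets, 34945 had 1 symbol in the platform annotation, 932 several and 9160 none, and only those with 1 symbol were used. Each gene was read by the brightest of its probe sets on average, giving 18193 genes, without a filter on dim ones. A single linear model of the 4 groups was fitted to all 12 arrays (lmFit and eBayes of limma 3.58.1 in R 4.3.3, with 8 residual degrees of freedom), and p-values were Benjamini-Hochberg adjusted over all genes within a comparison. Differences are log2 values ± SE of that fit, and the number of arrays limits their precision. No arrays were duplicates (highest correlation 0.996). The procedure was run on simulated data with independent normal values and the same SD on every array of a gene. That setting holds no array that stands apart, so it cannot show how such arrays act on the calls. Motifs were searched in RefSeq promoter windows of GRCm38.p6. The members and gene lists were chosen with earlier results of these data known. All 9 measured members are named in each of the 4 comparisons, and for 3 members the 3 genes nearest in pattern. Other pathway genes were taken from the up to 3 called genes of lowest p in each list and comparison, not all of which are named. Map3k14, Ikbke, Myc, Ccnd2 and Ebi3 were named outside that rule. One pathway list of the planned set is not reported here. Listed genes without a probe set of 1 symbol were not analysed here. Alternatives were other variance settings, array weights, fits of 2 groups, the replicate number as a block, other normalizations and scalings, a filter on dim genes, other uses of probe sets, a stricter threshold, and arrays left out. Figures were drawn with matplotlib.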

Additional observations from a re-analysis of the deposited data

How the results depend on the processing

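No called member changed direction under the 24 alternatives. Over members, comparisons and alternatives, 780 values kept their side of the threshold, 70 lost a call and 14 gained one. The number of members called in ABC against FO was 2, and it was 1 with the mean of a gene's probe sets, 0 at an adjusted p under 0.01, 4 without both arrays that stand apart and 0 to 3 when 1 array was left out. In ABC against old B1 it was 6, and it was 1 in a fit of those groups alone, 3 at 0.01 and 4 to 6 with 1 array left out. In old B1 against FO it was 6, and it was 2 in a fit of those groups alone, 2 at 0.01 and 2 to 6 with 1 array left out. Between old and young B1 it was 0, and it was 1 with array weights, with the mean of probe sets and without both arrays that stand apart, and 0 to 1 with 1 array left out. The stricter threshold calls fewer genes by construction. The cause of the other shifts was not tested. Fits of 2 groups use fewer arrays, yet in ABC against FO such a fit called 3 members.

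Counts over all genes also moved. In ABC against FO 1812 genes were called, against 3961 with array weights, 990 at 0.01, 2837 without old B1 replicate 3, 2964 without both arrays that stand apart and 2763 probe sets tested singly. In ABC against old B1 2334 were called, against 3592 with weights, 1281 at 0.01, 1062 in a fit of those groups alone and 3820 probe sets. In old B1 against FO 2988 were called, against 5001 with weights, 1706 at 0.01, 1455 in a fit of those groups alone and 5167 probe sets. Between old and young B1 53 were called, against 316 with weights, 2 in a fit of those groups alone, 32 with the replicate block, 15 at 0.01, 17 to 165 with 1 array left out and 208 without both arrays.

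Of the 82 pathway genes 18 were called in ABC against FO, against 34 with array weights and 11 at 0.01, and between old and young B1 2 were called, against 0 in a fit of those groups alone, 0 at 0.01 and 1 with the replicate block.

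The replicate numbers of the titles did not pair the arrays: 15 of 18 same-number correlations of deviations were below 0.1 (range -0.39 to 0.23), and no comparison had more than 2 of its 6 arrays correlate best with its own number. With the replicate block 2, 6, 6 and 0 members were called in the order above. Arrays carry no depth, and the second Tnfaip3 probe set is limited by signal.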
